A study of Mus musculus with 12 samples.

Results

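Genes that identify macrophages and monocytes were followed across untreated and treated samples labelled Hepa1-6, namely Adgre1, Csf1r, Cd68, Lyz2, Itgam, Mertk, Cd14, Cd163, Marco and Mrc1. The rule lists these 10 genes by name, and they make up 10 of the 21878 genes in the deposited count table. Each of the 10 passed the filter on low counts. Hepa1-6 is an established mouse hepatoma line, and the series is labelled as mouse liver tumor. The 4 groups of 3 libraries each were untreated, given IFNa, given antiPD1, or given both (the combination). The labels give the tissue as liver and give no dose, time, host strain or age. They do not say whether the 3 libraries of a group came from separate animals or cultures. The p-values therefore set group differences against the spread between these libraries, which may be technical.

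Macrophages and monocytes are phagocytes that depend on signalling through the CSF1 receptor and on the transcription factor PU.1. In the liver, resident macrophages line the sinusoids as Kupffer cells, and monocytes from the blood add to them when tissue is injured or inflamed. Tumours hold both kinds, and they are read through surface receptors, lysosomal proteins and scavenger receptors such as those followed here. IFNa is a type I interferon, and antiPD1 is an antibody that blocks the T cell checkpoint receptor PD-1.

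Library totals ranged from 31.3 to 38.5 M counts, and a count of 3 corresponded to 0.0786 to 0.102 counts per M (CPM). CPM are counts per M after TMM scaling, and FPKM are the fragments per kilobase and M fragments that were deposited. Afp, a fetal liver protein that hepatomas make, averaged 6129 to 10413 CPM by group; of the other hepatoma genes tested, Gpc3 was at 206 to 679 CPM and Igf2 at 2.36 to 23.7 CPM. Leukocyte genes were present in every library (the summed level of 6 general leukocyte genes was 178 to 1199.5 CPM). The antiPD1 replicate 3 stood apart: it was the highest of the 12 libraries for 9 of the 10 genes, and also for the summed T cell markers (245 CPM, against 11.4 to 117 in the other 11 libraries). It was also the highest for the summed fibroblast markers (4071 CPM, against 438 to 2165), the hepatocyte markers (18750.5 CPM, against 7587 to 12927) and 4 Y-linked genes (94.4 CPM, against 9.95 to 52.0). IFNa replicate 1 stood apart in another way: it had the lowest Ptprc, the pan-leukocyte phosphatase CD45 (21.2 CPM, with the other 11 libraries from 30.5 to 224), and the lowest summed T cell markers. In bulk RNA, fewer cells of a type and less RNA per cell cannot be told apart.

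Lyz2, which encodes lysozyme M, an enzyme that cuts bacterial cell walls, had the highest FPKM of the 10 genes in every group, and Cd163, the haemoglobin scavenger receptor, had the lowest. In untreated libraries the mean FPKM ran from Lyz2 (51.1) through Cd14 (23.3), Cd68 (22.4), Csf1r (11.3), Mrc1 (4.42), Adgre1 (4.34), Mertk (2.06), Itgam (1.53) and Marco (0.55) to Cd163 (0.18). Neighbours in that order overlapped between libraries in 6 of 9 pairs, so that Lyz2, Cd14 and Cd68 could not be ranked beyond their spread. In IFNa libraries 7 of 9 neighbouring pairs overlapped. In antiPD1 libraries Lyz2 stood clear at 650 FPKM (249.7 to 1423), and 7 of the 9 pairs overlapped. In combination libraries Lyz2 was at 439 FPKM (331 to 511), followed by Cd68 (55.9), Cd14 (34.4), Csf1r (30.6) and Adgre1 (15.8), and 2 of the 9 pairs overlapped.

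The receptors that define the lineage were higher with antiPD1. Csf1r (chromosome 18, plus strand, GENCODE M21 on mm10) encodes the receptor for CSF1 and IL-34 that macrophages need to survive. Csf1r was at 53.1, 47.3 and 83.1 CPM in untreated libraries, 59.9, 75.4 and 70.1 with IFNa, 107, 115 and 350.2 with antiPD1, and 157, 146 and 156 with the combination. All antiPD1 and combination libraries lay above all untreated and IFNa libraries. The rise with antiPD1 was 3.12-fold (log2 fold change 1.64 ± 0.40 SE, adjusted p = 0.0281, edgeR quasi-likelihood test), while the combination gave 1.32 ± 0.40 (adjusted p = 0.0539). Of the exonic bases of Csf1r, 15.1% overlap Hmgxb3 on the opposite strand, and the strand setting of the counting is not given in the sources used here. Hmgxb3 was at 52.8 CPM in antiPD1 replicate 3, its lowest library, where Csf1r was highest.

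Adgre1 (chr17:57358691-57483527, plus strand) encodes F4/80, the classical surface marker of mouse macrophages. Adgre1 was at 16.9, 13.1 and 24.9 CPM in untreated libraries, 9.10, 21.8 and 20.4 with IFNa, 33.8, 34.9 and 128 with antiPD1, and 69.5, 53.3 and 59.7 with the combination. The untreated and IFNa libraries overlapped and all 6 others were higher. The rise with antiPD1 was 3.59-fold (1.84 ± 0.52, adjusted p = 0.0392), and the combination gave 1.73 ± 0.52 (adjusted p = 0.0515).

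Itgam (chr7:128062640-128118491, plus strand) encodes CD11b, the alpha chain of the integrin Mac-1, which neutrophils also carry. It was at 6.71, 6.09 and 18.97 CPM in untreated libraries, 24.2, 19.2 and 14.8 with IFNa, 56.0, 24.2 and 80.5 with antiPD1, and 37.7, 38.0 and 33.9 with the combination. Itgam rose 5.05-fold with antiPD1 (2.34 ± 0.49, adjusted p = 0.0208) and also with the combination (1.78 ± 0.48, adjusted p = 0.0396). With IFNa the difference was 0.87 ± 0.47 (adjusted p = 0.885), and untreated replicate 3 lay inside the IFNa range. The annotation places 68.7% of the exonic bases of Itgam under Gm49368, a gene model on the same strand, so that its count depends on how shared reads were assigned.

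Of the lysosomal and secreted proteins of phagocytes, Lyz2 and Cd68 both rose with antiPD1. Lyz2 (chr10:117277331-117282321, minus strand) was at 64.4, 32.5 and 132 CPM in untreated libraries, 50.1, 125 and 131 with IFNa, 393, 366 and 2233 with antiPD1, and 711, 463 and 655 with the combination. The 6 libraries with antiPD1, alone or combined, lay clear of the 6 without. The rise was 13.1-fold with antiPD1 (3.71 ± 0.78, adjusted p = 0.0213), and the combination gave 2.998 ± 0.76 (adjusted p = 0.0335). Without antiPD1 replicate 3 the antiPD1 value for Lyz2 was 2.32 (adjusted p = 0.053). Lyz1, its neighbouring paralogue, is the intestinal lysozyme, and 15.4% of the 50-base windows of the Lyz2 transcript occur in Lyz1 too, so that reads could be split between them. Lyz1 was at 0.102 to 0.648 CPM in untreated libraries and 0.821, 6.57 and 27.7 CPM in antiPD1 libraries, far below Lyz2 in each.

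Cd68 (chr11:69664213-69666153, minus strand) encodes macrosialin, a glycoprotein of the lysosomal membrane in phagocytes. It was at 29.96, 35.3 and 47.7 CPM in untreated libraries, 46.1, 46.0 and 44.7 with IFNa, 88.0, 57.9 and 199.7 with antiPD1, and 112, 74.0 and 80.7 with the combination. IFNa libraries fell within the untreated range. Cd68 rose 3.06-fold with antiPD1 (1.61 ± 0.38, adjusted p = 0.0256), and the combination gave 1.24 ± 0.38 (adjusted p = 0.0543).

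Among receptors for dying cells and bacterial products, Mertk passed the test and Cd14 did not. Mertk (chr2:128698956-128802894, plus strand) is the receptor kinase through which macrophages engulf apoptotic cells. It was at 13.7, 11.8 and 18.8 CPM in untreated libraries, 17.3, 16.1 and 14.3 with IFNa, 28.6, 24.7 and 88.4 with antiPD1, and 38.7, 33.3 and 36.1 with the combination. Mertk rose 3.19-fold with antiPD1 (1.67 ± 0.41, adjusted p = 0.0280), and the combination gave 1.29 ± 0.41 (adjusted p = 0.0612). Cd14 (chromosome 18, minus strand) encodes the co-receptor that hands bacterial lipopolysaccharide to TLR4. It was at 31.5, 32.1 and 53.0 CPM in untreated libraries, 35.1, 46.7 and 55.2 with IFNa, 53.4, 59.6 and 141 with antiPD1, and 51.4, 60.4 and 48.0 with the combination. The lowest antiPD1 library was just above the highest untreated one and replicate 3 was far above it, and the combination libraries overlapped the untreated ones. Cd14 differed by 1.12 ± 0.36 with antiPD1 (adjusted p = 0.0563) and by 0.45 ± 0.35 with the combination (adjusted p = 0.402).

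Of the 3 scavenger receptors, Marco and Mrc1 were called higher with antiPD1 and Cd163 was not called. Marco (chr1:120474538-120505024, minus strand), a receptor that binds bacteria and particles on resident macrophages, was at 0.486, 1.46 and 4.55 CPM in untreated libraries and at 11.4, 2.29 and 2.67 with IFNa. It was at 14.2, 10.8 and 52.9 CPM with antiPD1 and at 7.50, 9.80 and 16.6 with the combination. Every antiPD1 and combination library lay above every untreated one, while IFNa replicate 1 reached into their range. Marco rose 11.9-fold with antiPD1 (3.57 ± 0.95, adjusted p = 0.0334), and the combination gave 2.38 ± 0.91 (adjusted p = 0.103). Its untreated counts were low, at 15, 43 and 149, and without antiPD1 replicate 3 the antiPD1 value for Marco was 2.52 (adjusted p = 0.125).

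Mrc1 (chr2:14229392-14332057, plus strand) encodes the mannose receptor CD206, carried by alternatively activated macrophages and by sinusoidal endothelium. It was at 31.03, 28.3 and 42.4 CPM in untreated libraries, 45.7, 37.8 and 34.5 with IFNa, 56.4, 43.2 and 129.9 with antiPD1, and 62.1, 54.1 and 49.5 with the combination. Mrc1 rose 2.25-fold with antiPD1 (1.17 ± 0.34, adjusted p = 0.0443), the smallest change of those that passed, and the combination gave 0.70 ± 0.34 (adjusted p = 0.181). The summed level of 8 endothelial markers was 110.5 to 237 CPM in untreated and 114 to 420.2 CPM in antiPD1 libraries, and its part in the Mrc1 result was not tested.

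Cd163 (chr6:124304656-124330527, plus strand) was at 0.389, 1.15 and 2.23 CPM in untreated libraries, 8.77, 0.858 and 0.734 with IFNa, 2.80, 0.139 and 1.01 with antiPD1, and 1.47, 1.19 and 0.441 with the combination. Its highest library was IFNa replicate 1, with 292 counts, and its lowest antiPD1 replicate 2, with 5. No group stood clear of another. The difference from untreated was 0.06 ± 1.12 with antiPD1 (adjusted p = 0.975) and -0.29 ± 1.13 with the combination (adjusted p = 0.884), and errors of that size leave a change of several-fold undetectable.

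**Figure D1:**
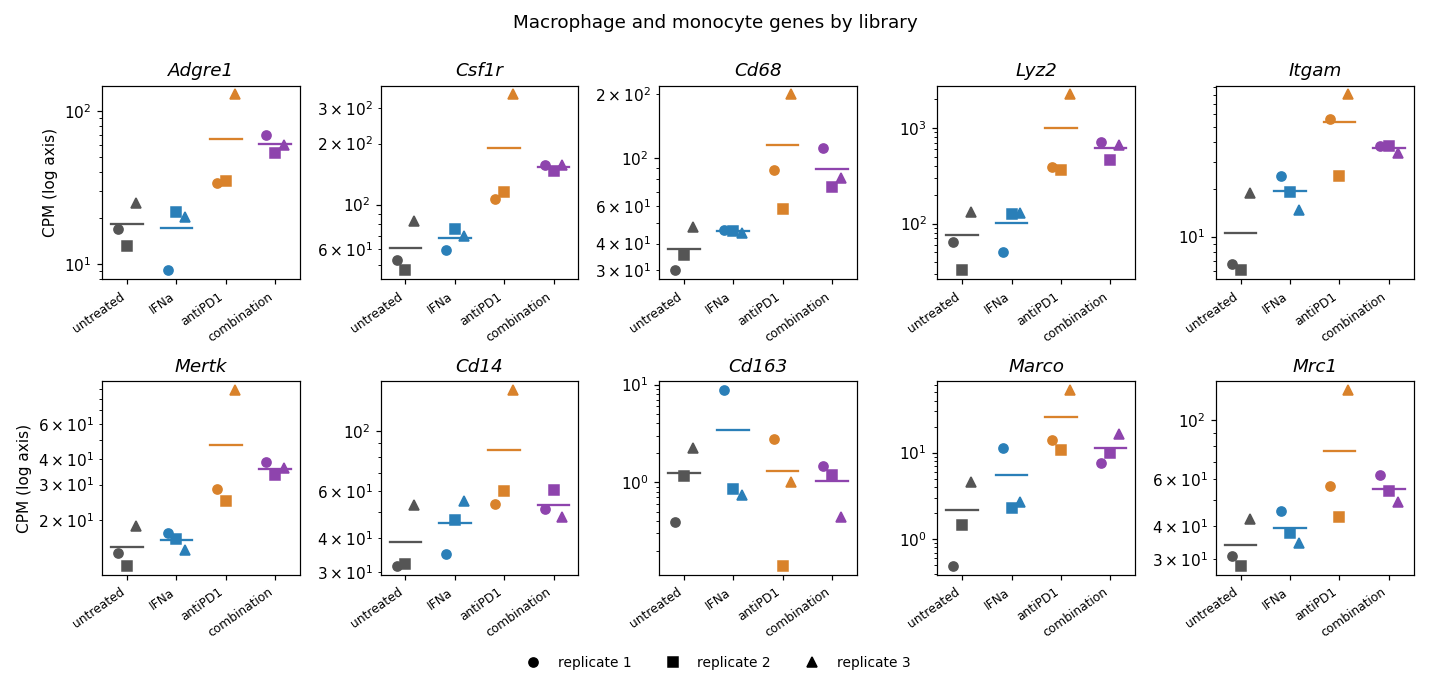
CPM (log axis) of each of the 10 genes in the 12 libraries, by group, with circles, squares and triangles for replicates 1, 2 and 3 and a line at the group mean. The triangle of antiPD1 is the highest point in 9 of the 10 panels. The combination libraries lie close together for most genes, and least so for Cd163 and Marco.

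Promoters of the members are shown because 8 of the 10 genes rose with antiPD1. RefSeq promoters (GRCm38.p6, the 250 bases before the start) were found for 7 of the 10, not for Adgre1, Csf1r and Cd14. Shown are those of Marco, called with antiPD1, and of Itgam and Lyz2, called with antiPD1 and with the combination. Beside them stands that of Cd163, with none called. Marco is chr1:120505025-120505274 on the minus strand, Itgam chr7:128062390-128062639 on the plus strand, Lyz2 chr10:117282322-117282522 on the minus strand (201 bases, ending at the annotated exon), and Cd163 chr6:124304401-124304650 on the plus strand. Capitals mark only the word GAGGAA or its reverse complement TTCCTC. The shorter GGAA, which the Lyz2 and Cd163 sequences also hold, is not marked.
Marco: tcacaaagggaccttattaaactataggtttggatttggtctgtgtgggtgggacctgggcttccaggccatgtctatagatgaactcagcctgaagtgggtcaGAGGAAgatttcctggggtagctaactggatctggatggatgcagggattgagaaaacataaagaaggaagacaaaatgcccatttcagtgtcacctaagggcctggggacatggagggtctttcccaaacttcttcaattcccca
Itgam: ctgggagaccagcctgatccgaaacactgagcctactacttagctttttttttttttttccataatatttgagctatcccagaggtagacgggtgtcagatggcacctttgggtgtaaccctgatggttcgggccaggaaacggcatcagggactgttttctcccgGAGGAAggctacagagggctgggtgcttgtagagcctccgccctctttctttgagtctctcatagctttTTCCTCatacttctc
Lyz2: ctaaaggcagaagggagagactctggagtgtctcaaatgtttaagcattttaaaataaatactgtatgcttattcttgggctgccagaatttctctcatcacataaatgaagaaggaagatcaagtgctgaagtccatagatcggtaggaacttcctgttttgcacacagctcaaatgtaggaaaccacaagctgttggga
Cd163: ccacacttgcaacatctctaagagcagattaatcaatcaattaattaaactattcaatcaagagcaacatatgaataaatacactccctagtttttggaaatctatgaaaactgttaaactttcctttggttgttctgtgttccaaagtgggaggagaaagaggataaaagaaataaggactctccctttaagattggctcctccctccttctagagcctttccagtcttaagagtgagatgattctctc

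GAGGAA, a word that PU.1 and other ETS factors can bind, was in 4 of the 7 promoters (Cd68, Itgam, Marco and Mrc1). It was in 23.36% of 32536 promoters of the same length, searched on both strands. The longer PU.1 word GAGGAAGT, which contains GAGGAA, was in 0 of 7 (2.45% of all promoters). The C/EBP word TTGCNNAA was in that of Cd68 (9.57%). The interferon-stimulated response element (GAAA, any 2 bases, then GAAA; 2.98%) and the MAF site TGCTGAC (3.79%) were in 0 of the 7. A match is a match of letters, and no match says only that these letters are not in this window. Compared position by position with no alignment, the Lyz2 and Lyz1 promoters were identical at 152 of 250 bases. A shift of bases lowers such a count, and the Lyz2 stretch counted runs into its annotated exon.

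Counted over the whole set, 8 of the 10 genes rose with antiPD1 and 0 fell. Among all 14330 genes tested, 14.8% passed, with 9.76% higher and 5.08% lower. Cd14 and Cd163 were the exceptions. The 3 antiPD1 libraries lay above the 3 untreated ones for 9 of the 10 genes, against 17.5% of all genes, and the median log2 fold change was 1.66, against -0.01 over all genes. These calls turned on single libraries. Without antiPD1 replicate 3, 1 of the 10 (Mertk, 0.86, adjusted p = 0.048) passed, 2.26% of all genes passed, and the median fell to 0.89. Without untreated replicate 1 or 2, 0 of the 10 passed, and 0.0344% or 0.0412% of all genes did. Fitted with the untreated and antiPD1 libraries alone, 0 of the 10 and 0% of all genes passed, and without combination replicate 2 the count was 5, with 9.38% of all genes.

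**Figure D2:**
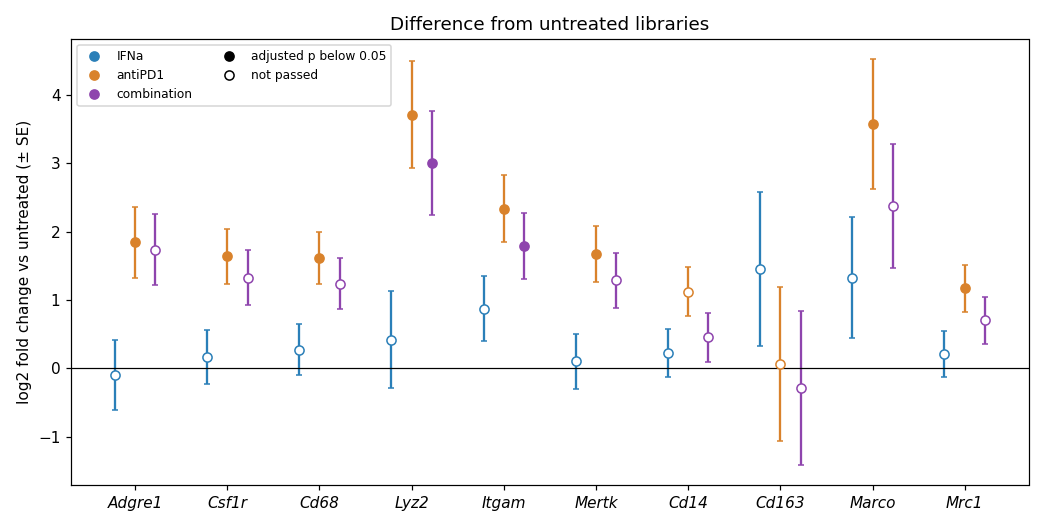
Log2 fold change from untreated for each gene with IFNa, antiPD1 and the combination; bars are 1 SE, and filled points have an adjusted p below 0.05. With antiPD1, 8 points are filled, with the combination 2 (Lyz2 and Itgam), and with IFNa 0.

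With the combination, Lyz2 and Itgam rose, and 8 genes did not pass. Of all genes, 12.6% passed, and 7.58% were called higher. Csf1r, Cd68 and Adgre1 lay between adjusted p values of 0.0515 and 0.0543. For 8 of the 10 genes the 3 combination libraries lay above the 3 untreated ones, against 24.7% of all genes, and the median log2 fold change was 1.30. The count of 2 also turned on the other libraries in the fit, which share 1 estimate of the spread: it was 7 without antiPD1 replicate 3 (20.1% of all genes passed), 6 without antiPD1 replicate 2 (13%) or untreated replicate 3 (17.8%), 4 without antiPD1 replicate 1 (11.8%) and 3 without IFNa replicate 1 (17.8%). It was 1 without IFNa replicate 2 (8.39%) or 3 (10.1%), and 0 without untreated replicate 1 or 2 or any combination library (0.227% to 1.43%). Fitted with the untreated and combination libraries alone, 7 of the 10 and 27.2% of all genes passed. These comparisons share the untreated libraries, so their values are set side by side and not counted as separate evidence.

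**Figure D3:**
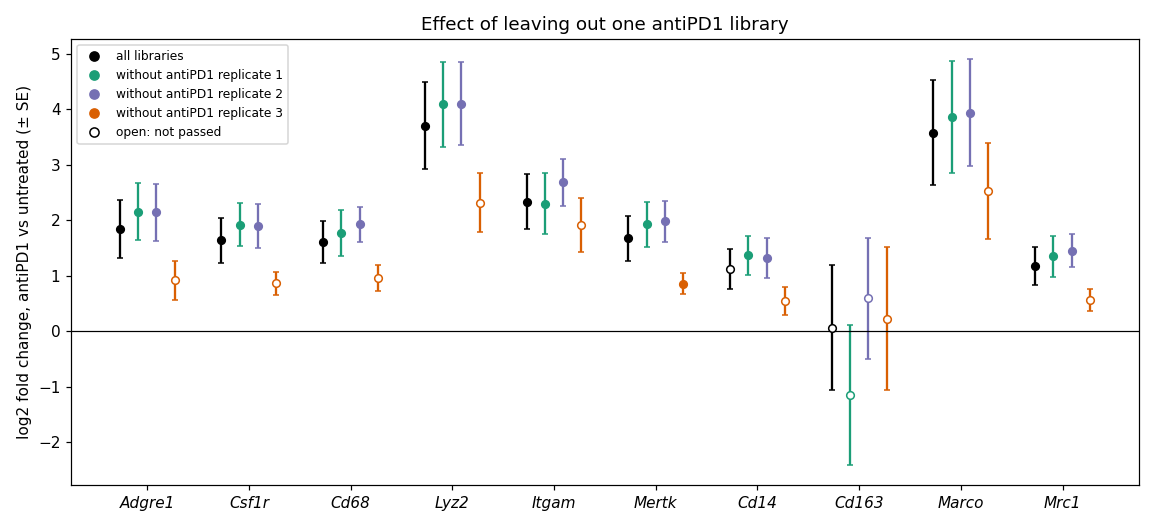
Log2 fold change of antiPD1 over untreated (bars, 1 SE) with all libraries and without each antiPD1 library in turn; filled points have an adjusted p below 0.05. Without replicate 3 the values move toward 0 for 9 genes and Mertk alone stays filled, while without replicate 1 or 2 there are 9 filled points.

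IFNa alone moved none of the 10 genes past the test. The log2 differences from untreated ran from -0.10 (Adgre1) to 1.45 ± 1.12 (Cd163), 9 of 10 were positive, and adjusted p ran from 0.885 to 0.981. At an unadjusted p under 0.05 the count was also 0, against 5.59% of all genes. At an adjusted p below 0.05, 0% of all genes passed as higher in the main fit. By adjusted p the count of the 10 was 0 with DESeq2 (0.266% of all genes passed) and with limma (0%). In 0 of the 10 genes did the IFNa libraries lie above the untreated ones, against 4.96% of all genes. The 2 largest differences, for Cd163 and Marco (1.33 ± 0.89), carried the value of IFNa replicate 1. In that library Cd163 and Marco were 8.77 and 11.4 CPM, against at most 0.858 and 2.67 in the other 2, while Adgre1 and Lyz2 were at their group's lowest.

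Adding IFNa to antiPD1 left the 10 genes without a called difference. All 10 were lower in the combination than with antiPD1 alone, from -0.11 ± 0.50 (Adgre1) to -1.20 ± 0.85 (Marco), with adjusted p from 0.997 to 0.999. At an unadjusted p under 0.05 the count was 0 too, against 4.76% of all genes in either direction. At an adjusted p below 0.05, 0% of all genes passed as lower. For 0 of the 10 did the combination libraries all lie below the antiPD1 ones, against 6.66% of all genes. The median of the 10 was -0.43 and became 0.21 without antiPD1 replicate 3. The interaction of the treatments was negative for all 10, from -0.01 ± 0.71 (Adgre1) to -2.53 ± 1.23 (Marco), and 0 passed (adjusted p from 0.799 to 0.996), as did 0% of all genes. Without antiPD1 replicate 3 it was positive for Adgre1 (0.88), Csf1r (0.27), Mertk (0.30) and Lyz2 (0.23), and the median went from -0.79 to -0.06. Without IFNa replicate 1 it was positive for Cd163 (0.31).

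Set against IFNa alone, 9 genes were higher with the combination and 9 with antiPD1, Cd163 being the exception in both, and 0 passed in either (0.342% and 0.0488% of all genes passed as higher). With the combination, Adgre1 differed by 1.83 ± 0.52 (adjusted p = 0.0906) and Lyz2 by 2.58 ± 0.75 (adjusted p = 0.0910), and 5 genes had an unadjusted p under 0.05, as did 23.1% of all genes. With antiPD1, 9 genes had an unadjusted p under 0.05, against 22.6% of all genes, led by Lyz2 (3.29 ± 0.77, adjusted p = 0.0790). The libraries did not overlap for 7 genes with the combination and 5 with antiPD1, against 20.3% and 12.4% of all genes. By DESeq2, 3 and 5 of the 10 passed, with 11.4% and 11.2% of all genes. Without antiPD1 replicate 3, 5 passed with the combination (10% of all genes), and without antiPD1 replicate 1, 4 passed with antiPD1 (4.90%).

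The spread among libraries differed by group. The median coefficient of variation of the 10 genes was 12.7% in the combination, 23.1% with IFNa, 32.2% untreated and 74.0% with antiPD1, where the medians over all genes were 7.39%, 16.7%, 11.8% and 17.6%. Untreated replicate 3 was the highest of its group for all 10 genes. Some markers of other cells were also highest in that library. Its summed fibroblast markers were 1638 CPM, against 695 and 438 in the other 2 untreated libraries, and its endothelial markers 237 CPM, against 110.5 and 118. Summed T cell markers were not, at 23.5 CPM, against 27.6 and 23.1. The hepatocyte sum, which is mostly Alb, was 11051 CPM, against 12025 and 10502. The hepatocyte markers other than Alb were highest in replicate 3, such as Cps1 (4934 counts, against 2229 and 1979) and Ttr (3966 counts, against 2636 and 2067). Summed hepatoma genes were lowest there (10069 CPM, against 11393 and 11241). The part of these other markers in the values was not tested.

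Ptprc served as a measure of leukocytes in general, and the macrophage genes were set against it within each library. Ptprc was at 31.4, 30.5 and 48.8 CPM in untreated libraries, 21.2, 50.4 and 47.4 with IFNa, 64.0, 92.3 and 224 with antiPD1, and 111, 109 and 114 with the combination. It rose with antiPD1 (1.78 ± 0.45, adjusted p = 0.0292) and with the combination (1.59 ± 0.44, adjusted p = 0.0427). The log2 ratio of Adgre1 to Ptprc was -1.03 ± 0.17, -1.22 ± 0.01, -1.04 ± 0.32 and -0.88 ± 0.18 (SD, n = 3) in untreated, IFNa, antiPD1 and combination libraries. The combination libraries lay above the IFNa ones, by 0.34, and the other pairs of groups overlapped.

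Lyz2 was higher relative to Ptprc with antiPD1 and with the combination. Its log2 ratio was 1.04, 0.09 and 1.43 in untreated libraries, 2.62, 1.99 and 3.32 with antiPD1, and 2.68, 2.09 and 2.53 with the combination, with no overlap with untreated in either. Marco was 2.16 higher relative to Ptprc with antiPD1 than untreated (-2.45 ± 0.56 against -4.61 ± 1.31). Cd14 went the other way: its log2 ratio was 0.01, 0.07 and 0.12 in untreated libraries, -0.26, -0.63 and -0.66 with antiPD1 and -1.11, -0.85 and -1.24 with the combination, and the 3 groups did not overlap. Mrc1 was 0.91 lower relative to Ptprc in the combination than untreated (-1.01 ± 0.18 against -0.11 ± 0.09).

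Differences of Csf1r (-0.26) and Mertk (-0.31) in the combination did not overlap with untreated either, but became 0.03 and -0.03 when the other 5 general leukocyte genes took the place of Ptprc; Lyz2 (1.86), Cd14 (-0.85) and Mrc1 (-0.62) kept their direction. The exact two-sided permutation test of 3 libraries against 3 cannot go below p = 0.1, which each of these differences reached, and over 60 such tests the adjusted value was 0.353. IFNa replicate 1 held the highest ratio of its group for 8 genes, with Csf1r at 1.496 and Mrc1 at 1.11, and Ptprc was lowest there.

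**Figure D4:**
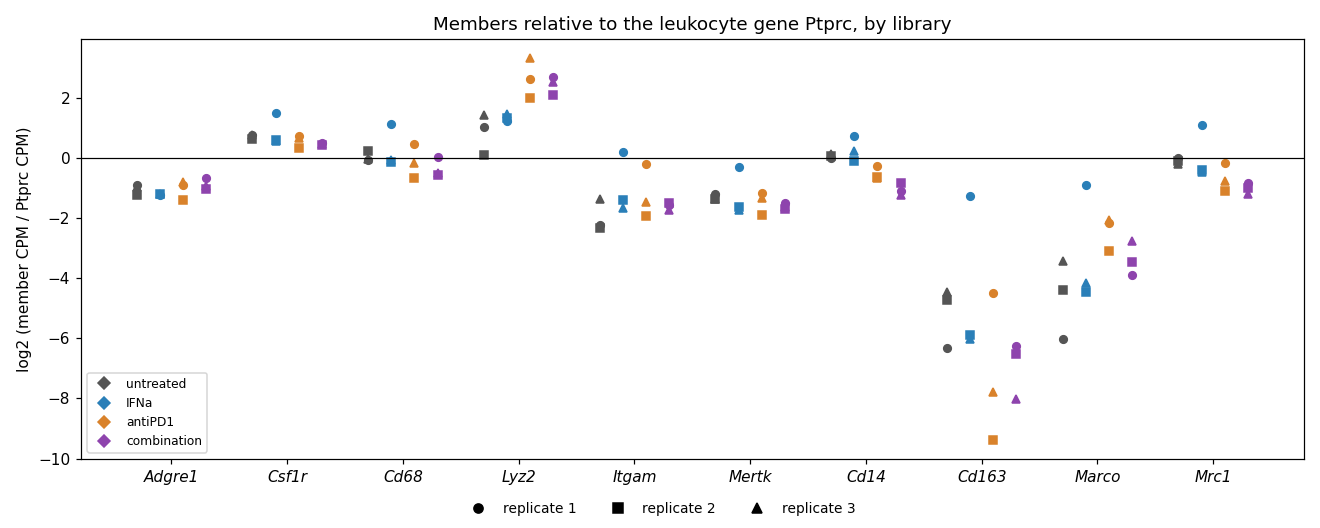
Log2 ratio of each gene's CPM to Ptprc CPM in each library, coloured by group, with symbols for replicates 1, 2 and 3. Lyz2 points of antiPD1 and the combination lie above the untreated ones, Cd14 points lie below them, and Adgre1 points lie between -1.40 and -0.67 in all groups.

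Over the 12 libraries, which share the treatment groups and antiPD1 replicate 3, 9 of the 10 genes were correlated with each other and Cd163 was not. Pearson's r of log2 CPM between pairs of the 9 ran from 0.69 (Adgre1 and Marco) to 0.98 (Csf1r and Mertk), and for Cd163 with each of the 9 from -0.34 to 0.21. Adgre1 followed Ptprc most closely (r = 0.98), and Marco followed it least of the 9 (0.71). Within groups the same correlations (of deviations from group means) were weaker for Marco, at 0.28 with Adgre1, 0.37 with Lyz2 and 0.24 with Ptprc. Marco was at 0.75 with Itgam and 0.72 with Mrc1. Itgam was weaker within groups as well, at 0.35 with Ptprc and 0.495 with Adgre1. Cd163 reached 0.63 with Itgam and 0.58 with Marco. These are descriptions over 12 libraries.

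Of 10924 other genes with a mean of at least 5 CPM, those most like each member over the 12 libraries were as follows. Adgre1 was most like Sirpa, the CD47 receptor (r = 0.993), and Nckap1l (0.991). Csf1r was most like Dse and Aoah, the latter an enzyme that inactivates lipopolysaccharide (both 0.994). Lyz2 was most like Apbb1ip (0.996) and Lbh (0.995), Cd68 like Smpdl3a (0.987) and Esyt1 (0.985), and Itgam like Ppp1r16b (0.986) and Fli1 (0.985). Mertk was most like Rasa4 (0.994) and Galnt6 (0.984), Marco like Ednra (0.974) and Bmp2k (0.973), and Mrc1 like Pacs1 (0.976) and Gde1 (0.975). Without the 2 libraries farthest from the member's median, r for these genes was 0.915 to 0.994. The likeness of Cd14 to Vps28 (0.957) and Cst3 (0.953) then became 0.830 and 0.880, and that of Cd163 to Ecm1 (0.930) and Gas7 (0.922) became 0.784 and 0.750, where the 2 libraries left out were antiPD1 replicate 3 and untreated replicate 1 for Cd14, and IFNa replicate 1 and antiPD1 replicate 2 for Cd163.

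Other genes of the same pathways were described by lists written from general knowledge, in which the 3 most abundant genes are named by rule and other genes were named after their values were seen. The list counts below stand beside shares of all genes tested. With antiPD1, 9.76% were called higher and 5.08% lower, and with the combination 7.58% were called higher. For the CSF1 receptor list of 13 ligands, partners and myeloid transcription factors, 6 rose with antiPD1 and 6 with the combination (median log2 fold change 1.31 and 1.14). The most abundant (Klf4, Cebpb and Cebpa) did not pass, at -0.38 to 0.69 with antiPD1. The ligand Csf1 rose with antiPD1 (1.31 ± 0.31, adjusted p = 0.0247) and with the combination (1.63 ± 0.31, adjusted p = 0.0169). Csf1 was at 14.9, 19.4 and 33.1 CPM untreated and 46.4, 63.7 and 57.5 CPM with antiPD1, so replicate 3 was not its highest library there. Spi1, which encodes PU.1, rose by 1.78 ± 0.34 (adjusted p = 0.0198) and 1.80 ± 0.34 (adjusted p = 0.0169).

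Of 10 partners of Cd14, 2 rose with antiPD1 and 2 with the combination. The most abundant, Lbp (-0.19), Tlr4 (0.12) and Irak4 (-0.04), did not pass with antiPD1, while Tlr2, a sensor of bacterial lipoproteins, rose by 2.07 ± 0.50 (adjusted p = 0.0259). Of 10 genes for taking up dying cells beside Mertk, 2 rose with antiPD1 and 2 with the combination. With antiPD1 these were the scavenger receptors Msr1 (1.32 ± 0.26, adjusted p = 0.0199) and Stab1 (1.52 ± 0.44, adjusted p = 0.0439). The sister kinase Axl (0.03), the ligand Gas6 (-0.41) and the bridging protein Mfge8 (-0.30) did not pass.

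Of 7 integrin genes beside Itgam, 3 rose and 1 fell with antiPD1, and 3 rose with the combination. Itgb2, the beta chain that pairs with CD11b, rose by 2.16 ± 0.49 (adjusted p = 0.0228) and 1.78 ± 0.48 (adjusted p = 0.0392). Itgad, a related alpha chain, fell by 2.56 on the log2 scale with antiPD1 (SE 0.74, adjusted p = 0.0423). Of the most abundant, Tln1 (0.02), Icam1 (0.35) and Itgax (1.76, adjusted p = 0.0661) did not pass. Of 9 lysosomal genes beside Cd68, 4 rose with antiPD1, and with the combination 1 rose (Ctss) and 1 fell. Ctsb rose with antiPD1 (1.30 ± 0.37, adjusted p = 0.0416), Ctsd did not pass (0.61), and Ctsl fell by 1.04 on the log2 scale with the combination (SE 0.25, adjusted p = 0.0296).

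The 3 chains of complement C1q, made largely by tissue macrophages, rose with antiPD1 and with the combination. C1qa went from 72.6 ± 14.8 CPM untreated to 273 ± 212 with antiPD1 (1.91 ± 0.48, adjusted p = 0.0292) and 236 ± 6.85 with the combination (1.70 ± 0.48, adjusted p = 0.0431), all SD with n = 3. Of 8 Kupffer cell genes, 1 rose with antiPD1 and 0 with the combination. That gene was Hmox1, the haem oxygenase (72.0 ± 17.4 to 268 ± 168 CPM, 1.89 ± 0.36, adjusted p = 0.0198), which many cells make under stress. Slc40a1 (1.06) and Cd5l (2.16, adjusted p = 0.101) did not pass, nor did Clec4f (0.70 ± 0.65), a marker particular to Kupffer cells by general knowledge. Of 8 blood monocyte genes, 4 rose with antiPD1 and 4 with the combination. Ccr2, which brings monocytes out of the marrow, rose by 1.93 ± 0.44 (adjusted p = 0.0233), while the most abundant, Plac8 (0.06), Nr4a1 (0.11) and Cx3cr1 (1.56, adjusted p = 0.0802), did not pass.

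Of 7 tested classical activation genes, 4 rose with antiPD1 and 2 with the combination. Nos2, the inducible nitric oxide synthase, went from 2.24 ± 0.694 CPM untreated to 22.7, 11.4 and 157 CPM with antiPD1 (4.82 ± 0.91, adjusted p = 0.0198) and 20.1 ± 10.9 with the combination (3.16 ± 0.85, adjusted p = 0.0397). Il1b (2.12, adjusted p = 0.0510) and Cd86 (1.63, adjusted p = 0.0504) did not pass. Of 7 tested alternative activation genes, 1 (Clec10a) rose with antiPD1 and with the combination. Arg1 (2.86, adjusted p = 0.0745), Mgl2 (1.80) and Chil3 (1.70) did not pass with antiPD1. Arg1 and Chil3 were at 227 and 61.3 CPM in IFNa replicate 1, against at most 33.9 and 1.70 in the other IFNa libraries. Cd163 and Marco were highest of their group in the same library. So were summed neutrophil markers (80.7 CPM, against 42.4 and 46.4) and endothelial markers (305 CPM, against 191 and 169). Hepatocyte markers other than Alb were highest there too, such as Cps1 (16607 counts, against 2909 and 2437). Summed T cell markers were lowest there, at 11.4 CPM. The part of other cells in the Arg1 and Chil3 values was not tested. With IFNa alone, 0 genes of any of these lists passed. Like the member counts, the list counts for antiPD1 fell without antiPD1 replicate 3 (C1q from 3 to 0, CSF1 receptor list from 6 to 3) and were 0 without untreated replicate 1 or 2.

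**Figure D5:**
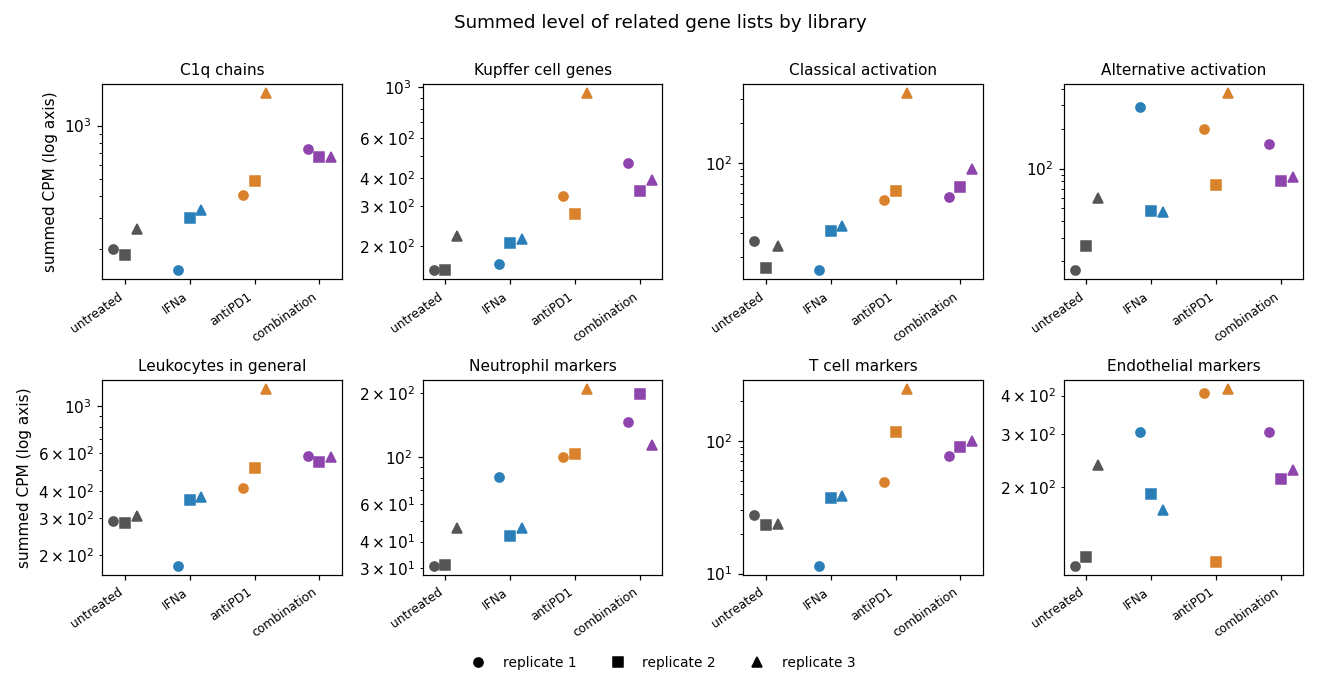
Summed CPM (log axis) of 8 gene lists (C1q, Kupffer cell, classical and alternative activation, general leukocyte, neutrophil, T cell and endothelial genes) in each library, by group, with symbols for replicates 1, 2 and 3. The antiPD1 replicate 3 is the highest point in these 8 panels, though not for the monocyte list, which is not drawn, and IFNa replicate 1 lies apart in its group for alternative activation genes.

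Some markers of other leukocytes also rose, where 9.76% of all genes were called higher with antiPD1 and 7.58% with the combination. Of 6 general leukocyte genes 5 rose with antiPD1 and 4 with the combination, of 8 T cell markers 8 and 4, of 5 B cell markers 4 and 2, of 7 dendritic cell markers 4 and 2, and of 9 neutrophil markers 4 and 7. Cd53, the most abundant of the leukocyte genes, did not pass (0.15), and Laptm5 rose with antiPD1 (1.92, adjusted p = 0.0269). The neutrophil alarmins S100a9 and S100a8 rose by 1.99 ± 0.39 and 2.32 ± 0.46 with antiPD1 (adjusted p = 0.0203 for both). Their summed list was 30.6 to 46.3 CPM untreated, 99.95 to 209 with antiPD1 and 113 to 198 with the combination. Ly6g, the defining neutrophil surface marker, was at 0.339 to 0.843 CPM untreated and 0.360 to 0.935 CPM with antiPD1. Its mean was 0.648 CPM in both groups. Neutrophils also express Itgam, Lyz2 and Cd14, and their part in those results was not tested.

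Of 7 fibroblast markers 3 rose with antiPD1 and 0 with the combination, of 8 endothelial markers 1 and 0, of 4 tested NK cell markers 1 and 0, and of 6 hepatocyte markers 1 and 0. The shares of all genes called higher were 9.76% and 7.58%. Counts of 0 or 1 called higher in such short lists are not read as a result. Of the 3 tested hepatoma genes 1 fell with each treatment, Afp, by 0.57 on the log2 scale with antiPD1 (SE 0.14, adjusted p = 0.0281) and by 0.76 with the combination (SE 0.14, adjusted p = 0.0159). The part of these other cells in the macrophage gene values was not tested.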

How the data were processed

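Total RNA of 12 libraries was sequenced. The submitters' processing notes name HISAT2 2.1.0, HTSeq, Cufflinks and the mm10 build; which annotation and strand setting were used is not given in the sources used here. Whole-number counts per gene and, for the same genes, FPKM were read from the tables the authors deposited. Groups came from the sample labels.

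The 10 genes and all gene lists (20 lists, 146 genes) were chosen with earlier results of these data known. Counts were analysed in R 4.3.3 with edgeR 4.0.16. Low genes were removed by filterByExpr at a minimum count of 10, TMM factors scaled the libraries, and a robust quasi-likelihood fit took all 12 libraries with a mean for each group. Benjamini-Hochberg adjustment covered the 14330 genes left, and calls needed an adjusted p below 0.05. Group means are given ± SD and fold changes ± SE. All 10 members were named, with the 3 most abundant genes of each list, Ptprc and the 2 genes most like each member. The fit was tested on simulated data.

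Alternatives were RLE size factors, no filter, DESeq2 1.42.0, only the groups compared, a replicate block, limma 3.58.1 on log2(FPKM + 1) and log2(FPKM + 0.1), and leaving out libraries. Of 21878 symbols, 94.5% matched GENCODE M21, which gave the coordinates. Floors cover counting error only.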

Additional observations from a re-analysis of the deposited data

How the results depend on the processing

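The numbers of the 10 genes called moved with the setting, and no called value changed direction. For antiPD1 against untreated (8 as reported) the count was 5 with no filter on low counts (9.93% of all genes passed), 0 with only the groups compared (0%), 2 with limma on log2(FPKM + 1) with no filter (4.09%), and 5 without IFNa replicate 1 and antiPD1 replicate 3 (10.7%). For the combination against untreated (2 as reported) it was 0 with no filter (7.86%), 5 with DESeq2 (19%), 7 with only the groups compared (27.2%), 4 and 6 with limma on log2(FPKM + 1) and log2(FPKM + 0.1) (8.72% and 9.42%), and 8 without those 2 libraries (29.2%). For the combination against IFNa (0 as reported) it was 3 with DESeq2 (11.4%), 6 with only the groups compared (8.09%) and 4 without those 2 libraries (9.07%), and for antiPD1 against IFNa (0 as reported) 5 with DESeq2 (11.2%). DESeq2 gave Lyz2 no adjusted p in the antiPD1 and combination comparisons with untreated. Leaving out each library in turn gave 0 to 9 for antiPD1, 0 to 7 for the combination, 0 to 5 for the combination against IFNa and 0 to 4 for antiPD1 against IFNa. IFNa against untreated, the combination against antiPD1 and the interaction stayed at 0 under every alternative run. The median over the 10 genes of the difference in log2 ratio to Ptprc, combination minus untreated, was -0.29. It became -0.00239 against the other 5 leukocyte genes. For antiPD1 minus untreated, that median difference ranged from -0.27 to 0.09 on leaving out 1 library. The cause of these shifts was not tested.

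Whether replicate numbers pair the libraries could not be settled. Deviations from group means correlated above 0.1 in 8 of 18 same-numbered pairs (mean r 0.0895, lowest -0.306). Among pairs with different numbers, 12 of 36 did (mean r -0.0439). Outside their own group, 7 of 12 libraries correlated best with one of their own number. With the replicate block the counts were 9 for antiPD1, 6 for the combination and 1 for the combination against IFNa, with 16.7%, 15.2% and 3.78% of all genes. The 3 libraries per group and low counts of Cd163 and Marco limit what could be detected.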
